A study of Mus musculus with 84 samples.

Results

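The genes described here are the high-affinity IgE receptor FcεRI and the chain of signalling proteins behind it, a list of 40 genes chosen by name and looked up by gene symbol in the deposited count table of 55471 genes. All 40 were found and all had reads in every bulk library. Their lowest count was 27 reads, for Orai1 in the IL4Ra-/- library. MMC9s are IL-9-producing mucosal mast cells, here sorted from the small intestine in a BALB/c model of food allergy to ovalbumin. The bulk part had 3 libraries, 1 per genotype. Bone marrow progenitors that were WT, IL4RaY709F (a receptor alpha chain for IL-4 with gain of function) or IL4Ra-/- (loss of function) were transferred into WT mice sensitized to ovalbumin. In every genotype the recipients were then given ovalbumin by mouth 7 times, 3 times weekly, and 12 to 20 biological replicates were pooled into each RNA sample. The alleles came with the transferred progenitors, so any other blood cell grown from them would carry the allele too, while the recipients themselves were WT. The sources used here give neither age nor sex of the mice. In addition, 81 single WT MMC9s were sequenced, from mice in an ovalbumin and alum model. Their gate took lineage-negative cells with high IL-4 GFP that carried c-Kit and ST2, had little β7-integrin and lacked IL-17RB2, and none is stated for the bulk sort in the sources used here. No animal is named for the cells, so they count as 1 sample.

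FcεRI is built of several protein chains. The alpha chain binds IgE, the beta chain amplifies the signal, and the paired gamma chains carry the activation motifs. When an allergen cross-links bound IgE, the kinase LYN phosphorylates the beta and gamma chains and SYK is recruited to them. SYK then phosphorylates the adaptor LAT, around which SLP-76, VAV1 and phospholipase C gamma assemble, while FYN acts through GAB2 on PI3 kinase. Calcium release, protein kinase C and the MAP kinases follow and lead to degranulation and cytokine production. In food allergy this route lets ingested antigen trigger the mast cells of the gut wall.

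Reads in genes numbered 2299793 for WT, 2521791 for IL4RaY709F and 2330628 for IL4Ra-/-. Il4ra had 353 CPM (library-scaled read counts) in WT, 787 in IL4RaY709F and 138 in IL4Ra-/-. The IL4Ra-/- library was thus lower in the direction of its label, but the counts are per gene and do not show where a deletion lies, and a point mutation cannot be read from them. All 11 mast cell markers were read in each library and held 6.21%, 8.20% and 6.37% of gene reads in the same order. Within that sum 8 were above WT in IL4RaY709F, led by Cma1 at 1303 CPM in WT and 4153 in IL4RaY709F. Kit, Gata2 and Mitf were below WT there. In IL4Ra-/- 4 were above WT and 7 below. Reads of other cell types differed between the libraries. The 12 macrophage markers, all read in each library, summed to 178 CPM in WT, 90.7 in IL4RaY709F and 599 in IL4Ra-/-, led by Lyz2 and Mpeg1. The 10 B or plasma cell markers, led by Igkc and Jchain, summed to 2881, 1418 and 6548 CPM, with Mzb1 at 0 in WT. The 9 dendritic cell markers, led by Cd74 and H2-Aa, summed to 305, 259 and 790 CPM, with Flt3 and Zbtb46 at 0 in WT, Flt3 at 0 in IL4RaY709F and Xcr1 at 0 in IL4Ra-/-. T cell markers summed to 161, 203 and 282 CPM, but Cd3e alone held 349 of 367, 456 of 471 and 671 of 717 of their reads. Cd8a and Cd5 were at 0 in WT, and Cd8a, Trac and Cd5 in IL4RaY709F. Epithelial markers summed to 25.8, 26.7 and 68.03 CPM. Eosinophil or neutrophil markers summed to 44.6, 34.4 and 30.3 CPM, with Epx and Ly6g at 0 throughout. The IL4Ra-/- library was highest on all of these lists except the last. With 1 library per genotype nothing below has a replicate check, and each interval is a 95% counting interval that covers counting error only. In bulk RNA, fewer cells of a type and less RNA per cell cannot be told apart.

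In the WT bulk library the alpha chain of the receptor was the most abundant member. The beta and gamma chains came close behind an adaptor and a GTPase there, but not in the summed single cells. On a scale that divides reads by gene length and library total (TPM), Fcer1a, the IgE-binding alpha chain, reached 12447 TPM in WT bulk and was first of the 40. The order went on with Lcp2, which encodes the adaptor SLP-76, at 1217 TPM, Rac2, a small GTPase of blood cells, at 1195 TPM, Ms4a2, the beta chain, at 1145 TPM, and Fcer1g, the gamma chain shared with other Fc receptors, at 1035 TPM. Inpp5d, the inositol phosphatase SHIP1, followed at 653 TPM and Lyn at 523 TPM. Syk, the kinase on which the route depends, stood at 57.3 TPM and Fyn at 133 TPM. The lowest members were Sos1, a Ras exchange factor, at 16.7 TPM, Pik3r5, a regulatory subunit of PI3 kinase gamma, at 16.6 TPM, and Nfatc2, a calcium-regulated transcription factor, at 8.95 TPM. The top of the order thus holds the receptor chains, an adaptor and a GTPase, and Syk lay far below them. The order below Fcer1a varied. In the summed reads of the WT single cells, Ms4a2 stood at 2434 TPM, Fcer1g at 1952, Rac2 at 1914 and Lcp2 at 994. In IL4RaY709F bulk these were 1282, 1225, 1158 and 1078 TPM, and in IL4Ra-/- 1786, 901, 1009 and 1058 TPM.

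**Figure D1:**
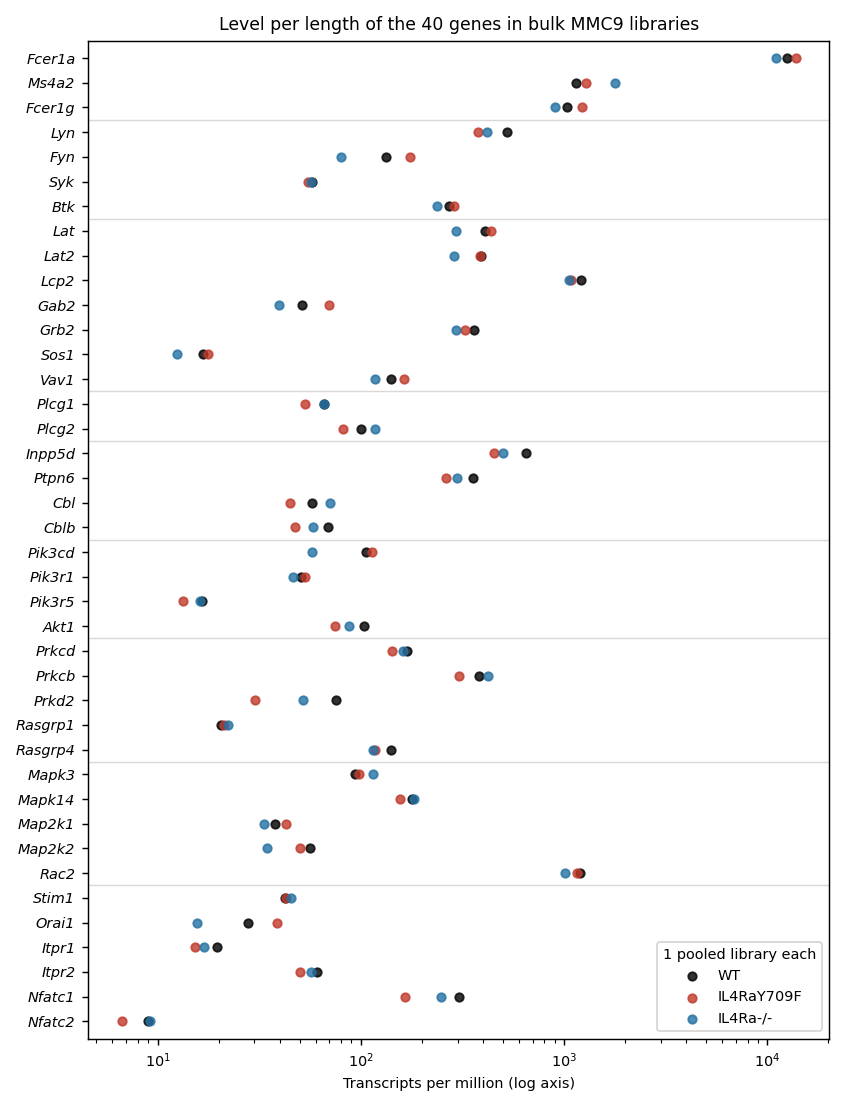
Level per gene length, in TPM on a log axis, of the 40 genes in the 3 bulk libraries, grouped by role from receptor chains at the top to calcium and NFAT genes at the bottom. Each point is 1 pooled library, so there are no error bars, and Fcer1a stands above all other members in each library.

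In some families with several members, 1 of them led. Among the NFAT factors Nfatc1 stood at 306 TPM in WT, against 39.2 TPM for Nfatc3 and 8.95 TPM for Nfatc2. For the Ras exchange factors of the RasGRP family, Rasgrp4 stood at 142 TPM and Rasgrp1 at 20.6 TPM. Phospholipase C gamma was more even, with Plcg2 at 100.1 TPM and Plcg1 at 65.7 TPM. Among the IP3 receptors Itpr3 at 71.5 TPM and Itpr2 at 60.8 TPM were close, and Itpr1 was lower at 19.5 TPM. In the summed WT single cells the order differed, at 5.54, 12.5 and 12.5 TPM for Itpr3, Itpr2 and Itpr1. Nfatc3 and Itpr3 are not among the 40.

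The first comparison asked how the gain-of-function receptor bears on this pathway. Nearly all members stayed within 2-fold of WT. A call needed 50 reads in the larger library, a ratio of scaled CPM of 2-fold or more, and a counting interval that excluded a ratio of 1. In IL4RaY709F, 0 of 40 members were called higher (1.68% of the 5964 genes tested) and 1 was called lower (0.771% of genes). Scaled by total reads in place of TMM, the 5964 genes gave 71 higher (1.19%) and 69 lower (1.16%) calls against 100 and 46, and still 1 member, Prkd2. At 1.5-fold, 3 members were higher (6.15% of genes) and 2 lower (3.55% of genes), but with total-read scaling 0 were higher (4.02% of genes) and 2 lower (6.02% of genes). The median log2 ratio of the members was 0.04 (-0.06 with total reads), beside 0.02 over all genes tested, and 17 of 40 were below 0, beside 47.2% of genes. These shares of members lie near those of all genes.

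That 1 member was Prkd2 (ENSMUSG00000041187, GRCm38 chromosome 7, 16842902 to 16870464, plus strand), a protein kinase D activated downstream of diacylglycerol. It stood at 120 CPM in WT, 54.6 in IL4RaY709F and 77.5 in IL4Ra-/-. It was 2.20-fold lower in IL4RaY709F than in WT (1.77 to 2.73), the 26th lowest ratio of 5964. In IL4Ra-/- it was also below WT, by a log2 ratio of -0.63 (-0.90 to -0.36), so WT was the highest of the 3 libraries. Nfatc1, the leading NFAT factor, had the same order with smaller gaps. It stood at 718 CPM in WT, 445 in IL4RaY709F and 545 in IL4Ra-/-, log2 ratios to WT of -0.69 (-0.80 to -0.58) and -0.40 (-0.50 to -0.30).

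The second comparison set the loss-of-function receptor against WT. No member passed the size rule in IL4Ra-/-, with 0 of 39 tested called higher (2.43% of 6246 genes) and 0 called lower (1.3% of genes). With total-read scaling the 6246 genes gave 207 higher (3.31%) and 45 lower (0.72%) calls against 152 and 81, and again no member. At 1.5-fold, 0 members were higher (6.52% of genes) and 4 lower (8.85% of genes), namely Fyn, Map2k2, Pik3cd and Prkd2. With total reads that was 1 higher, Ms4a2 (10.3% of genes), and 3 lower without Prkd2 (4.76% of genes). Orai1 was not tested, with 46 and 27 reads. The members nevertheless lay low as a list: with TMM scaling 32 of 39 had a log2 ratio below 0, beside 58.1% of all genes. With total-read scaling 27 of 39 were below 0, and the share of all genes was not computed there. The members' median of -0.30 with TMM lay 0.22 below the median of all genes at -0.08, a gap that no rescaling alters. Genes with many reads lay lower in general in this comparison. Among genes with 200 to 1000 reads in the larger library, 22 of 25 members were below 0, median -0.34, beside 66.1% of genes and a median of -0.14. With 1000 reads or more, 6 of 8 members were below 0, beside 78.3% of genes, and the medians were -0.32 and -0.24. The share below 0 is thus above that of genes of like count in the middle range and not in the top range. The macrophage, dendritic and plasma cell reads given above were highest in this library, and their part in these ratios was not tested.

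**Figure D2:**
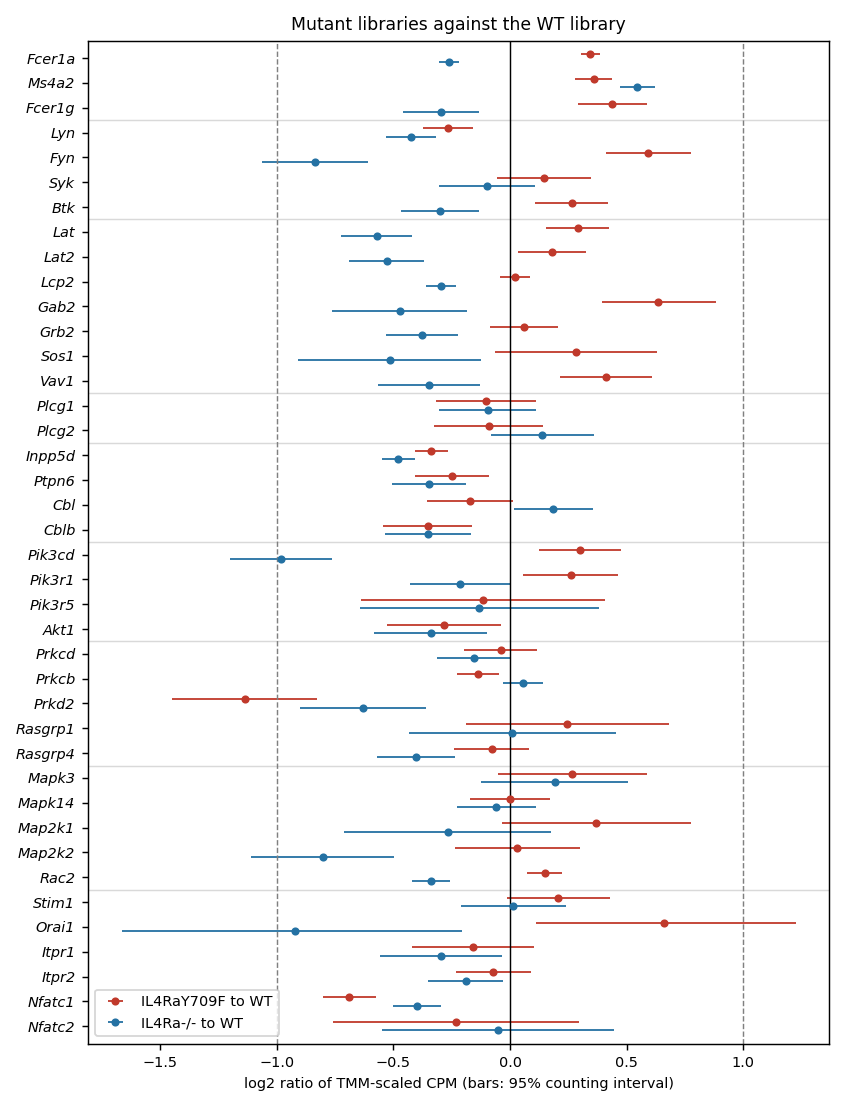
Log2 ratio of scaled CPM of each member in IL4RaY709F (red) and IL4Ra-/- (blue) to the same WT library, with 95% counting intervals as bars and dashed lines at 2-fold. Prkd2 in IL4RaY709F is the only point past a dashed line, and most blue points lie left of 0. The ratios share the WT library and so are not independent.

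Because both comparisons with WT share its library, the mutants were also compared with each other. Here 4 of 40 members were called higher in IL4RaY709F (4.62% of 6319 genes) and 0 lower (3.5% of genes). The split over all genes turned with the scaling, from 292 higher and 221 lower to 145 (2.29%) and 359 (5.68%) with total reads. Then 3 members were called, Fyn, Pik3cd and Orai1, while Gab2 had a log2 ratio of 0.87. The 4 genes belong to 2 arms of the pathway: Fyn, Gab2 and Pik3cd make up a kinase, its adaptor and the PI3 kinase subunit p110 delta, and Orai1 is the pore of the store-operated calcium channel. The median log2 ratio over the 40 members was 0.21, beside 0.09 over all genes. Above 0 were 31 of the 40 members, beside 3668 of the 6319 genes. With total-read scaling the median of the members turned to -0.03, with 19 of 40 above 0. The share of all genes above 0 was not computed with that scaling.

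Fyn (ENSMUSG00000019843, chromosome 10, 39368855 to 39565381, plus strand) stood at 182 CPM in WT, 275 in IL4RaY709F and 102 in IL4Ra-/-. WT lay between the mutants, with log2 ratios to WT of 0.59 (0.41 to 0.77) and -0.84 (-1.06 to -0.61), neither 2-fold. Between the mutants Fyn differed 2.69-fold (2.33 to 3.12), the 101st highest ratio of 6319. Pik3cd (ENSMUSG00000039936, chromosome 4, 149649168 to 149702571, minus strand) stood at 209 CPM in WT, 257 in IL4RaY709F and 106 in IL4Ra-/-. Most of its 2.43-fold difference between the mutants (2.10 to 2.81) lay on the loss-of-function side, since its log2 ratio to WT was -0.98 (-1.20 to -0.76) in IL4Ra-/- and 0.30 (0.12 to 0.48) in IL4RaY709F. That value in IL4Ra-/- was 1.97-fold, just inside the threshold, and the 87th lowest of 6246 genes.

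Gab2 (ENSMUSG00000004508, chromosome 7, 97081586 to 97308946, plus strand), the adaptor through which FYN reaches PI3 kinase, stood at 99.3 CPM in WT, 154 in IL4RaY709F and 71.6 in IL4Ra-/-. It differed 2.16-fold between the mutants (1.80 to 2.59). Orai1 (ENSMUSG00000049686, chromosome 5, 123015074 to 123030456, plus strand) had 46, 74 and 27 reads, or 20.1, 31.8 and 10.6 CPM, in the same order. Its ratio between the mutants was 3.00-fold with a wide interval of 1.91 to 4.84. All of these had WT between the mutants. A gene 2-fold or more apart between the mutants and within 2-fold of WT in both must have that order. The shared order is therefore no separate result, and with 1 library each no order has a replicate check.

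**Figure D3:**
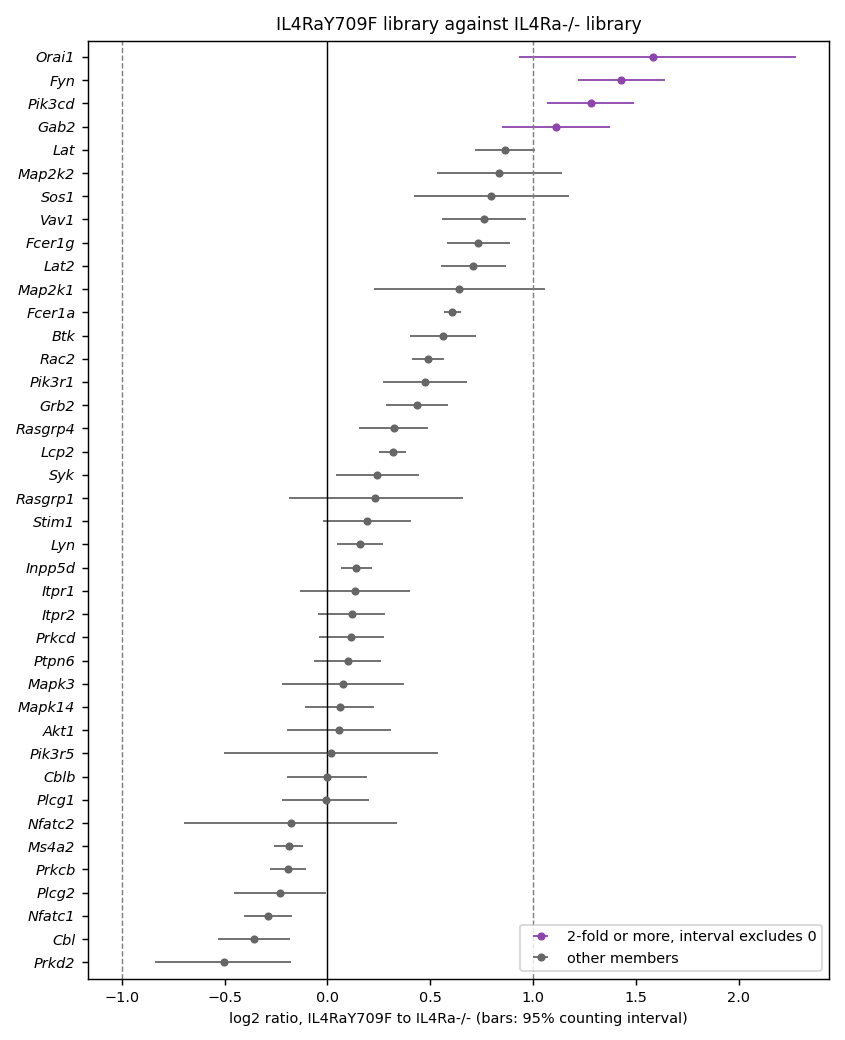
Log2 ratio of scaled CPM in IL4RaY709F to IL4Ra-/- for the 40 members, sorted, with 95% counting intervals and dashed lines at 2-fold. The 4 called members (purple) lie at the top from 1.11 to 1.58, and Prkd2 is lowest at -0.50.

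Promoters are shown for 3 of the 4 members called between the mutants. For 32 of the 40 genes RefSeq gives a start site in the promoter table used here (GRCm38.p6, 42 promoters, 250 bases before and 50 after the start). The entries for Lyn, Lat2, Gab2, Rasgrp4, Mapk3, Rac2, Itpr1 and Nfatc1 are missing from it. Each was searched on both strands for AGATAA, the site of GATA factors such as GATA2 of mast cells, for TTC and GAA with any 4 bases between, a STAT6-type site, and for TGANTCA, the AP-1 site that BATF-containing dimers also bind. No window shown holds matches of different motifs that overlap. In the sequences below, written 5′ to 3′ on the gene's strand, capitals mark a match.
Fyn, chr10:39369549-39369848, plus strand: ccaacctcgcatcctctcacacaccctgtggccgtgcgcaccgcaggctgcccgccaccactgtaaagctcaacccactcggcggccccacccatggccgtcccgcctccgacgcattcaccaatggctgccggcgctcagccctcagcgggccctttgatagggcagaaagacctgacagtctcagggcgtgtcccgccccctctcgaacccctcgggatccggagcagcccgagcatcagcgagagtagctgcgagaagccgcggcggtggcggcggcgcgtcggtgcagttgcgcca
Pik3cd, chr4:149698659-149698958, minus strand: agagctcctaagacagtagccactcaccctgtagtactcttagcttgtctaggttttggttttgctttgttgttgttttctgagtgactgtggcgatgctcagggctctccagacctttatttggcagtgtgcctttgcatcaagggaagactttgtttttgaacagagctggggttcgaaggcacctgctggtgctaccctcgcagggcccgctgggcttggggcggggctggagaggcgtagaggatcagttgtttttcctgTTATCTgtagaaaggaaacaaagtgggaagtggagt
Orai1, chr5:123014824-123015123, plus strand: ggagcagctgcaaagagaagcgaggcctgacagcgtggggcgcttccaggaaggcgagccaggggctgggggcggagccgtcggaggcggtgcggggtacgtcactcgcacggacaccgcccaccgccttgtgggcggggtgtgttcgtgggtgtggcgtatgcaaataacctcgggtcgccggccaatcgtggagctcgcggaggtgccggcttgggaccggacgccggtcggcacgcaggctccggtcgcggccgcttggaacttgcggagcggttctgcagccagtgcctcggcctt
The Fyn and Orai1 windows hold none of the 3 motifs. Pik3cd has 3 start sites in the table and its window shown here, the only one of them with a match, holds a GATA site on the opposite strand, which begins 14 bases after the start. Over all members with a promoter, 6 of 42 promoters held the GATA letters (Fcer1a, Lcp2, Mapk14, Ms4a2, Pik3cd and Plcg2), beside 11.2% of all 32851. For the STAT6-type letters it was 3 of 42 (Inpp5d, Mapk14 and Plcg2), beside 6.95%. AP-1 letters were in 0 of 42, beside 7.81%. A match is only a string of letters and no binding was measured.

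The receptor chains had different patterns from each other. Fcer1a (ENSMUSG00000005339, chromosome 1, 173221284 to 173227214, minus strand) stood at 3904 CPM in WT, 4957 in IL4RaY709F and 3254 in IL4Ra-/-, with log2 ratios to WT of 0.34 (0.30 to 0.38) and -0.26 (-0.31 to -0.22). Fcer1g (ENSMUSG00000058715, chromosome 1, 171229572 to 171234365, minus strand) had the same order at 284, 385 and 232 CPM. Ms4a2 (ENSMUSG00000024680, chromosome 19, 11615523 to 11623719, minus strand) did not: it stood at 1013 CPM in WT, 1298 in IL4RaY709F and 1478 in IL4Ra-/-. WT was therefore lowest for the beta chain, which had the highest ratio of any member in IL4Ra-/- at 0.55 (0.47 to 0.62). All 3 chains were above WT in IL4RaY709F under each scaling tried, and none reached 2-fold in any comparison. The 6 basophil markers, from the other cell type that carries the whole receptor, summed to 1063 CPM in WT, 1204 in IL4RaY709F and 756 in IL4Ra-/-, of which Basp1 alone held 1836 of 2430 reads in WT. The 2 basophil proteases of the list were both above WT in IL4RaY709F and went opposite ways only in IL4Ra-/-. Mcpt8 had 19, 30 and 41 reads and Prss34 had 101, 265 and 32 reads. Their part in the receptor ratios was not tested.

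The windows of the alpha and beta chain, the receptor genes that most mark mast cells and basophils, both held GATA letters.
Fcer1a, chr1:173227180-173227479, minus strand: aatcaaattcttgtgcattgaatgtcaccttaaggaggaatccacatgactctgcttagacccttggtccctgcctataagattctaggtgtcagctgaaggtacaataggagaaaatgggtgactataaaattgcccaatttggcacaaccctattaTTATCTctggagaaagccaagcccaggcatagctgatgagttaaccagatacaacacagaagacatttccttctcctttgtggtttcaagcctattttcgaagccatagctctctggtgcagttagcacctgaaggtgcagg
Ms4a2, chr19:11623670-11623969, minus strand: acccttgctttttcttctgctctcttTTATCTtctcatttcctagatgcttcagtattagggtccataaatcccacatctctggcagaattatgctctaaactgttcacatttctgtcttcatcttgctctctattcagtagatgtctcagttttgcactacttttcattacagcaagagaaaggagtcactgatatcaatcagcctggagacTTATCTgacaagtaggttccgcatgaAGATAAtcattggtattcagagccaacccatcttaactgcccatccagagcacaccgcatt
Fcer1a held 1 match, which began 92 bases before the start, and Ms4a2 held 3, which began 224, 37 and 11 bases before it.

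The proximal kinases differed in size of response. Lyn, the kinase tied to the receptor at rest, stood at 669 CPM in WT, 556 in IL4RaY709F and 498 in IL4Ra-/-, with WT highest. Its relative Fyn had WT in the middle, as described. Syk was close to level at 168, 186 and 157 CPM, and its intervals to WT included 0 in each mutant. Btk, a Tec kinase, stood at 270, 325 and 220 CPM. All 4 were below WT in IL4Ra-/- with TMM scaling, though Syk turned above 0 with total reads.

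The adaptors and exchange factors, which include Gab2 beside those around LAT, lay apart between the mutants. All 7 had log2 ratios above 0 in IL4RaY709F, with a median of 0.28, though Lcp2 and Grb2 turned below 0 with total-read scaling. In IL4Ra-/- all 7 were below 0 under each scaling tried, with a median of -0.47. Between the mutants, 5 of the 7 (Gab2, Lat, Lat2, Sos1 and Vav1) were 1.5-fold or more higher in IL4RaY709F, beside 14.6% of all genes. Over all 40 members that count was 12 higher and 0 lower, beside 8.36% of genes lower. With total-read scaling it was 6 higher (7.22% of genes) and 2 lower (17.2% of genes), and of the 7 adaptors and exchange factors only Gab2 and Lat were among the 6.

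Lat, the membrane scaffold itself, stood at 356 CPM in WT, 436 in IL4RaY709F and 239 in IL4Ra-/-. Lat2, its relative NTAL, stood at 321, 363 and 222 CPM, but 36.3% of its exon bases overlap Rfc2 on the opposite strand. The sources used here give no strand setting for the counting, so reads of that pair could not be told apart. Vav1, the exchange factor for Rac, stood at 163, 216 and 128 CPM. Lcp2 was the flattest at 1705, 1729 and 1388 CPM, and Grb2, which links receptors to Ras, stood at 329, 343 and 253 CPM.

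The inhibitory members, which end or damp the signal, did not follow the adaptors. Inpp5d, which removes the PI3 kinase product, stood at 1560 CPM in WT, 1234 in IL4RaY709F and 1119 in IL4Ra-/-, log2 ratios to WT of -0.34 (-0.41 to -0.27) and -0.48 (-0.55 to -0.41). Ptpn6, the tyrosine phosphatase SHP-1, stood at 313, 264 and 246 CPM, and Cblb, a ubiquitin ligase, at 228, 178 and 179 CPM. WT was highest for these 3 genes. Cbl, the related ligase, stood at 224, 200 and 255 CPM. All 4 were below WT in IL4RaY709F under each scaling tried, with a median log2 ratio of -0.29 and none at 1.5-fold. The Inpp5d window is shown for its match to the STAT6-type letters, the motif bound by STAT6, the main transcription factor of the IL-4 receptor.
Inpp5d, chr1:87620062-87620361, plus strand: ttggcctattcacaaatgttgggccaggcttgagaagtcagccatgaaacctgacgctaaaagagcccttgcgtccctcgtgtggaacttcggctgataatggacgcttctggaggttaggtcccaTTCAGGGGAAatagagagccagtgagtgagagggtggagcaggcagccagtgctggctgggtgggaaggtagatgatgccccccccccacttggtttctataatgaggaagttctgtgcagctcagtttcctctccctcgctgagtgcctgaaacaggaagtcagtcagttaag
The match began 124 bases before the start, and the gene was below WT in both mutant libraries. Mapk14 and Plcg2, the other members with these letters, had intervals to WT that included 0 in both. A link between letters and level was not tested.

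Phospholipase C and the PI3 kinase genes other than Pik3cd had no ratio of 1.5-fold or more. Plcg1 stood at 162 CPM in WT, 151 in IL4RaY709F and 152 in IL4Ra-/-, and Plcg2 at 135, 127 and 149 CPM, with intervals to WT that included 0. Pik3r1, the regulatory subunit that partners p110 delta, stood at 160, 192 and 138 CPM, a log2 ratio of 0.47 (0.27 to 0.68) between the mutants. Pik3r5 had 62 to 67 reads per library and intervals too wide to separate them. Akt1, the kinase activated by the PI3 kinase product, stood at 134, 110 and 106 CPM, with WT highest and log2 ratios of -0.28 (-0.53 to -0.04) and -0.34 (-0.58 to -0.10).

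The remaining members of the diacylglycerol, MAP kinase and calcium branches had small ratios with a few exceptions. Prkcb, the leading protein kinase C among the members, stood at 918 CPM in WT, 835 in IL4RaY709F and 954 in IL4Ra-/-. Prkcd, Rasgrp1, Mapk3, Mapk14, Stim1, Itpr1, Itpr2 and Nfatc2 had log2 ratios between -0.30 and 0.27 in both comparisons with WT. Rasgrp4, a mast cell Ras exchange factor, was at -0.40 (-0.57 to -0.23) in IL4Ra-/-, and 18.2% of its exon bases overlap other genes, mostly Fam98c. Of the MAP kinase kinases, Map2k2 stood at 100.1 CPM in WT, 102 in IL4RaY709F and 57.4 in IL4Ra-/-, a log2 ratio of -0.80 (-1.11 to -0.50) in the last. Its paralogue Map2k1 stood at 40.3, 52 and 33.4 CPM, and Rac2 at 1166, 1292 and 921 CPM. Stim1, the calcium sensor that opens ORAI1, stood at 138, 159 and 139 CPM, and its log2 ratio between the mutants was 0.19 (-0.02 to 0.41).

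Of 62 further genes of the pathway that are not among the 40, 50 were tested against WT in each mutant. In IL4RaY709F 1 was called higher (1.68% of all genes tested) and 0 lower (0.771%). In IL4Ra-/- 0 were called higher (2.43% of genes) and 0 lower (1.3%). Between the mutants 51 were tested, with 1 higher (4.62% of genes) and 1 lower (3.5%). Sphk1, which makes sphingosine 1-phosphate after receptor cross-linking, was the gene called higher both times. It had 34 reads in WT, 120 in IL4RaY709F and 17 in IL4Ra-/-, a 3.47-fold higher level in IL4RaY709F than in WT (2.35 to 5.24) and a 7.72-fold difference between the mutants (4.62 to 13.7). Mapk9, a JNK kinase, was 2.14-fold lower in IL4RaY709F than in IL4Ra-/- (1.49 to 3.12), at 44 against 103 reads. Among the genes of this list with the highest levels in WT were Map2k3, a kinase that activates p38, at 537 TPM, and Csk, which restrains LYN and FYN, at 331 TPM. The medians of the list were -0.01, -0.13 and 0.09 in the order IL4RaY709F to WT, IL4Ra-/- to WT and IL4RaY709F to IL4Ra-/-.

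In the single WT cells the first question was whether each cell carries the pathway. Of 81 cells, 80 had at least 10000 gene reads and were kept, with 163596 to 2210211 reads each. Before the results, 8 cells stood apart. In 2 of them, cells 37 and 46, Igha, Igkc and Jchain made up 41.2% and 65.4% of reads, and Fcer1a stood at only 80.3 and 9.65 CPM, which goes against their label. In 6 others, fewer than 1000 genes had 10 or more reads (249 to 659) and mitochondrial genes held 35.7% to 90.8% of reads. The mitochondrial share alone did not set these apart, since cell 4, which stayed among the 72, held 45.7%. That cell also had the lowest Fcer1a level of the 72. Values for the other 72 cells are given beside those of all 80.

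Detection in a cell meant 10 or more reads. Fcer1a was detected in 80 of 80 cells (at least 95.5% of cells by the exact binomial interval), at a lowest, median and highest level of 9.65, 5540 and 10887 CPM. The lowest value comes from an immunoglobulin-rich cell, so 10 reads is a low bar, and in the 72 cells the lowest Fcer1a value was 106 CPM. Ms4a2 was detected in 78 of 80 cells with a median of 1851 CPM and Fcer1g in 71 of 80 with a median of 571 CPM. All 3 chains were detected together in 71 of 80 cells, and in 71 of the 72. With 100 CPM or more required of each chain, 71 cells passed as well. Over the 72 cells the coefficient of variation was 0.41 for Fcer1a, 0.50 for Rac2, 0.55 for Fcer1g, 0.75 for Lat2, 0.76 for Ms4a2, 1.01 for Lcp2 and 1.06 for Lyn, so the receptor chains were among the members with the smallest values without being apart from all others.

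**Figure D4:**
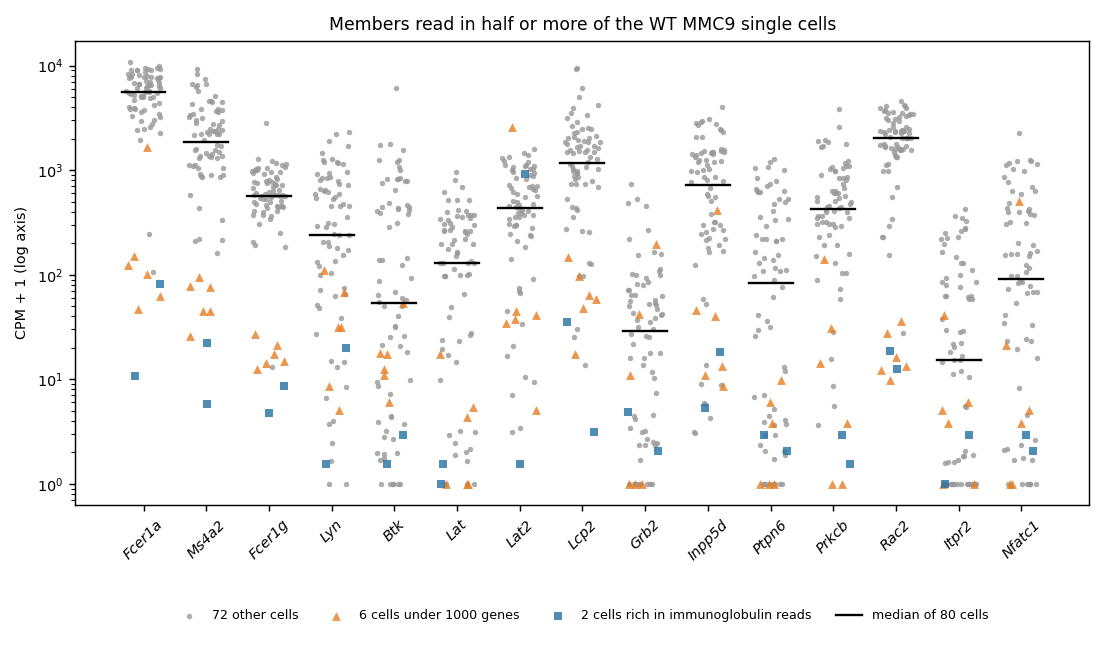
CPM plus 1 on a log axis in each of 80 WT cells for the 15 members detected in 50% or more of them, with the median of the 80 cells as a black bar. The 2 immunoglobulin-rich cells (blue squares) and the 6 cells under 1000 genes (orange triangles) lie low for the receptor chains and Rac2, while the other 72 cells (grey) lie mostly between 1000 and 10000 CPM for Fcer1a.

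Apart from Lcp2, Lat2 and Rac2, the genes of the signalling proteins were detected in fewer cells than any receptor chain. Of the 40 members 15 were detected in 50% or more of the 80 cells (16 in the 72, with Stim1 added). Besides the receptor chains these were Lcp2 (77 cells), Lat2 (74), Rac2 (73), Prkcb (70), Inpp5d (67), Lyn (66), Lat (58), Nfatc1 (56), Btk (52), Grb2 (50), Ptpn6 (49) and Itpr2 (44). The median share over members was 31.9% of cells. At the low end were Pik3r5 and Nfatc2 with 6 cells each and Map2k1 with 7.

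The kinases show how this plays out along the chain. Lyn was detected in 66 of 80 cells (82.5%, interval 72.4% to 90.1%), Syk in 21 (17.04% to 37.3%) and Fyn in 17 (12.9% to 31.8%). At least 1 of the 3 was detected in 68 cells, Fyn and Syk together in 6 and all 3 in 6. Syk reached 1237 CPM in its highest cell while its median was 0.30 CPM. Of the other genes called between the mutants in bulk, Pik3cd was detected in 22 cells, Gab2 in 16 and Orai1 in 10, and Prkd2, called against WT, in 15. For Map2k1 and Nfatc2, 1 cell held 76.3% and 68.1% of the summed CPM. A cell without reads for a gene of low level is not shown to lack it, because detection ran with abundance: the share of cells had a Spearman rho of 0.93 with the WT bulk CPM over the 40 genes, a description over genes and not over samples.

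**Figure D5:**
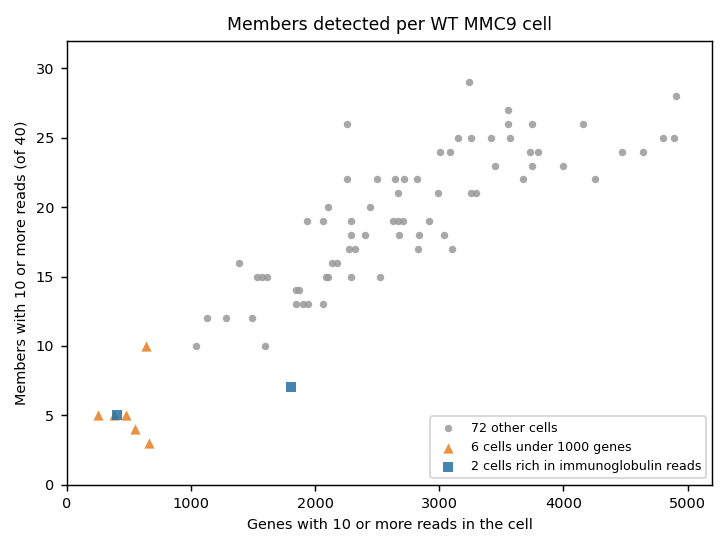
Number of the 40 members with 10 or more reads in each of 80 WT cells, against the number of genes with 10 or more reads in that cell. The count of members runs from 3 to 29 and goes up with the genes detected, and the 2 immunoglobulin-rich cells and the 6 cells under 1000 genes lie at the lower left with 3 to 10 members.

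The number of members detected per cell ran from 3 to 29 with a median of 19 (10 to 29 in the 72 cells). It followed the number of genes detected in the cell, with a Spearman rho of 0.88 over the 80 cells and 0.84 over the 72, values that share each cell's library. Levels per length in the summed cells ranked the 40 genes much as WT bulk did, with a Spearman rho of 0.89 over genes, although the mice of the cells and of the bulk library came from different models.

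Members varied together across cells only weakly. For the 105 pairs among the 15 genes detected in 50% or more of cells the median Spearman rho was 0.22, beside 0.14 over all pairs of the 1427 genes detected as often. Over the same pairs in the 72 cells these were 0.09 and 0.05. With CPM recomputed over nuclear protein genes without the 100 genes of most reads, 11 of the 15 members were left, and their 55 pairs had a median of 0.13 in the 80 cells, beside 0.09 over all pairs and 0.19 for these 55 before the change. The highest pairs were Fcer1a with Rac2 at 0.50 (0.32 in the 72 cells), Lcp2 with Nfatc1 at 0.50 (0.45), Fcer1a with Ms4a2 at 0.47 (0.27), Fcer1a with Lat at 0.44 (0.28) and Lyn with Lat at 0.44 (0.34). The lowest were Itpr2 with Ms4a2 at -0.09 (-0.24), Btk with Grb2 at -0.07 (-0.13) and Itpr2 with Nfatc1 at -0.05 (-0.18). The pair of receptor chains thus lost much of its value without the 8 cells, whereas Lcp2 with Nfatc1 changed little.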

How the data were processed

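The values deposited by the authors are raw counts of reads in each gene, not normalized, for 3 bulk libraries and 81 single cells. HISAT was the aligner and featureCounts (Subread 2.0.0) the counter, per the submitters' processing notes. The notes name mm9 and GRCm38 without their roles. All 40 members have the coordinates of GENCODE M21 (GRCm38), as do 99.4% of the gene IDs found there. The sources used here give no strand setting and no rule for multi-mapping reads.

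Library-scaled counts (CPM) of the bulk libraries were computed with TMM (edgeR 4.0.16, R 4.3.3). With 1 library per genotype no model was fitted and no p-value computed. Ratios have 95% intervals from the exact binomial (Clopper-Pearson) given both counts, which were checked on simulated counts. Reads are not independent molecules, so intervals cover counting error only. TPM used the deposited gene lengths and has no TMM scaling, so its order across libraries can differ from that of CPM. CPM of cells used all gene reads. Cells needed 10000 gene reads, which left 80. No doublet caller was run, and no clusters were formed.

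The members, the lists and the alternatives were chosen with earlier results of these data known. Named are all 40 members, further pathway genes that were called or were among the 3 highest in WT, the 5 highest and 3 lowest pairs across cells, Il4ra, and the 2 leading genes of marker lists. A result that this rule would name is not reported here.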

Additional observations from a re-analysis of the deposited data

Results flagged for a closer look

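The cell left out for depth, cell 77 with 1225 gene reads, still had reads in genes of the pathway. Of its reads 20 fell in the 40 members. The 3 reads that a count of 0 allows are a bound for 1 gene, so this sum cannot be set against them. They were spread over 10 members, with 5 reads in Fcer1a and 1 in Ms4a2. No bulk group had enough libraries for a test of single samples, and the single cells were not tested that way.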

How the results depend on the processing

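Each genotype has 1 library, so no bulk result has a replicate check, leaving out a library was not possible, and at 2299793 to 2521791 gene reads per library a member under 50 reads had an interval wider than most differences. No paired analysis was possible because each genotype has 1 library. Scaling moved every bulk ratio by a constant. Against TMM, total reads shifted log2 ratios by -0.11 (IL4RaY709F to WT), 0.13 (IL4Ra-/- to WT) and -0.24 (IL4RaY709F to IL4Ra-/-). TMM over genes detected in 50% or more of the cells, added after seeing the data, shifted them by -0.10, 0.18 and -0.28. The median of the members then reversed in IL4RaY709F to WT, to -0.0632 with total reads and -0.0541 with the cell genes. It also reversed in IL4RaY709F to IL4Ra-/-, to -0.0295 and -0.0627. The median in IL4Ra-/- to WT kept its sign under both, at -0.16 and -0.12. Gab2 between the mutants fell below 2-fold, at 0.87 with total reads. Of 119 ratios of single members, 55 left their counting interval or changed sign under total reads, and 1 did under DESeq2's size factors. At 1.5-fold the calls were 3 higher and 2 lower in IL4RaY709F to WT, 4 lower in IL4Ra-/- to WT and 12 higher between the mutants. At 1.5-fold with total reads, added after seeing the data, they were 0 higher and 2 lower, 1 higher and 3 lower, and 6 higher and 2 lower, in the same order. Read minimums of 20 or none changed no count of calls. In the cells, detection at 1 read gave a median share of 53.1% and 25 members in 50% of cells, and detection at 100 CPM, added after seeing the data, gave a median share of 16.2%. The median correlation of pairs was 0.1251 with the reduced gene set and, in the 72 cells, also added later, 0.0937, over the same genes too. The repeat with another deposited count table was not run, since a single table holds the bulk libraries.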
